A study of Rattus norvegicus with 40 samples.

Results

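The Slc25 family, the mitochondrial carriers, was followed through T cells isolated from blood and kidney of SS rats, the Dahl salt-sensitive strain, whose blood pressure rises on a high-salt diet. A gene model was taken as a member where any of its symbols began with Slc25a, which gave 44 of the 31677 gene models, 14949 of which carry a symbol. The rats were of 2 types by their labels, SS/MCW and SS/CRL, and no transgene or deletion was named for any group. SS/MCW rats were sampled on LS (low-salt) chow at 7 weeks of age, on LS at 10 weeks and after 3 weeks of HS (high-salt) chow at 10 weeks. SS/CRL rats were sampled on LS and after 3 weeks of HS, both at 10 weeks. Each of these 5 groups of rats gave circulating and kidney cells, and each of the resulting 10 groups had 4 libraries, 1 for each pool of 3 rats.

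The values are the authors' FPKM (fragments per length of transcript and per total of mapped fragments), 1 value per group, so no SD over the 4 pools can be given and depth is unknown. Levels were read from the table that compares the tissues of the same group of rats. The tables were normalized separately, and for members at 5 FPKM or more the level of 1 group differed between tables by 1.10 to 1.16 times. Where 5 values follow each other they stand in the order SS/MCW LS at 7 weeks, then SS/MCW LS, SS/MCW HS, SS/CRL LS and SS/CRL HS at 10 weeks. A member is said to be higher, lower or called where Cuffdiff's q, taken from the authors' deposited table, lay under 0.05. Errors of log2 ratios are the standard errors (SE) implied by the authors' test statistic, over 4 pools a group. Positions are those of the deposited gene models on build rn5.

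The labelled cell type was checked against 12 T cell markers, whose summed level was 5318 to 6438 FPKM in the circulating groups and 232 to 886 FPKM in the kidney groups. The sum of 10 proximal tubule markers was 0.192 to 0.981 FPKM in the circulating groups and 2614 to 10123 FPKM in the kidney groups, with SS/CRL LS highest. The sum of 8 markers of the thick limb and distal nephron was 4.66 to 7.86 FPKM in the circulating groups and 1426 to 14392 FPKM in the kidney groups, and that of 8 macrophage markers 46.3 to 64.4 FPKM and 152 to 842 FPKM. No T cell marker was listed at 0 in a kidney group, but in each of them the summed level of either tubule list was above that of the T cell list. The kidney values below are therefore those of the kidney preparations as sequenced, and the part of tubule cells in them was not tested. In such bulk samples fewer cells of a type and less RNA per cell cannot be told apart.

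Most Slc25 carriers sit in the inner mitochondrial membrane and exchange or cotransport small molecules between the cytosol and the matrix, among them ADP and ATP, phosphate, citric acid cycle intermediates, amino acids, acylcarnitines, coenzymes, iron and glutathione. They share a fold built from repeated pairs of membrane helices, are encoded in the nucleus and are imported after translation. Proliferating T cells use them to feed the respiratory chain, nucleotide synthesis and aspartate export, and the proximal tubule, which takes its ATP from oxidation, is rich in them.

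Among the 44 members taken by symbol, a few carriers made up most of the summed message. The ADP/ATP carrier Slc25a5 was first of them and the phosphate carrier Slc25a3 second in all 10 groups. The symbol rule leaves out carriers with other names. Among those, the uncoupling protein gene Ucp2 stood at 571 to 636 FPKM in the circulating groups, above Slc25a5 in each. The levels of all 44 members summed to 1134 to 1273 FPKM in the circulating groups and to 2628 to 3246 FPKM in the kidney groups. The 3 most abundant members of each group held 53.2% to 65.6% of the sum. Of the 44 members, 36 reached 5 FPKM in at least 1 group and 3 others, Slc25a2, Slc25a21 and Slc25a34, reached 1 FPKM. The remaining 5, Slc25a6, Slc25a18, Slc25a27, Slc25a41 and Slc25a47, stayed under 1 FPKM in all 10 groups. Slc25a18 is a glutamate carrier, Slc25a27 an uncoupling protein relative of neurons, Slc25a41 an ATP-Mg carrier and Slc25a47 a carrier of the liver. Between the 5 kidney groups the highest level exceeded the lowest by 1.17 to 5.47 times (median 1.55) over the 36 members, and between the 5 circulating groups by 1.05 to 2.14 times (median 1.21) over the 35 with no circulating value at 0. Slc25a45 had the widest range in both tissues.

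**Figure D1:**
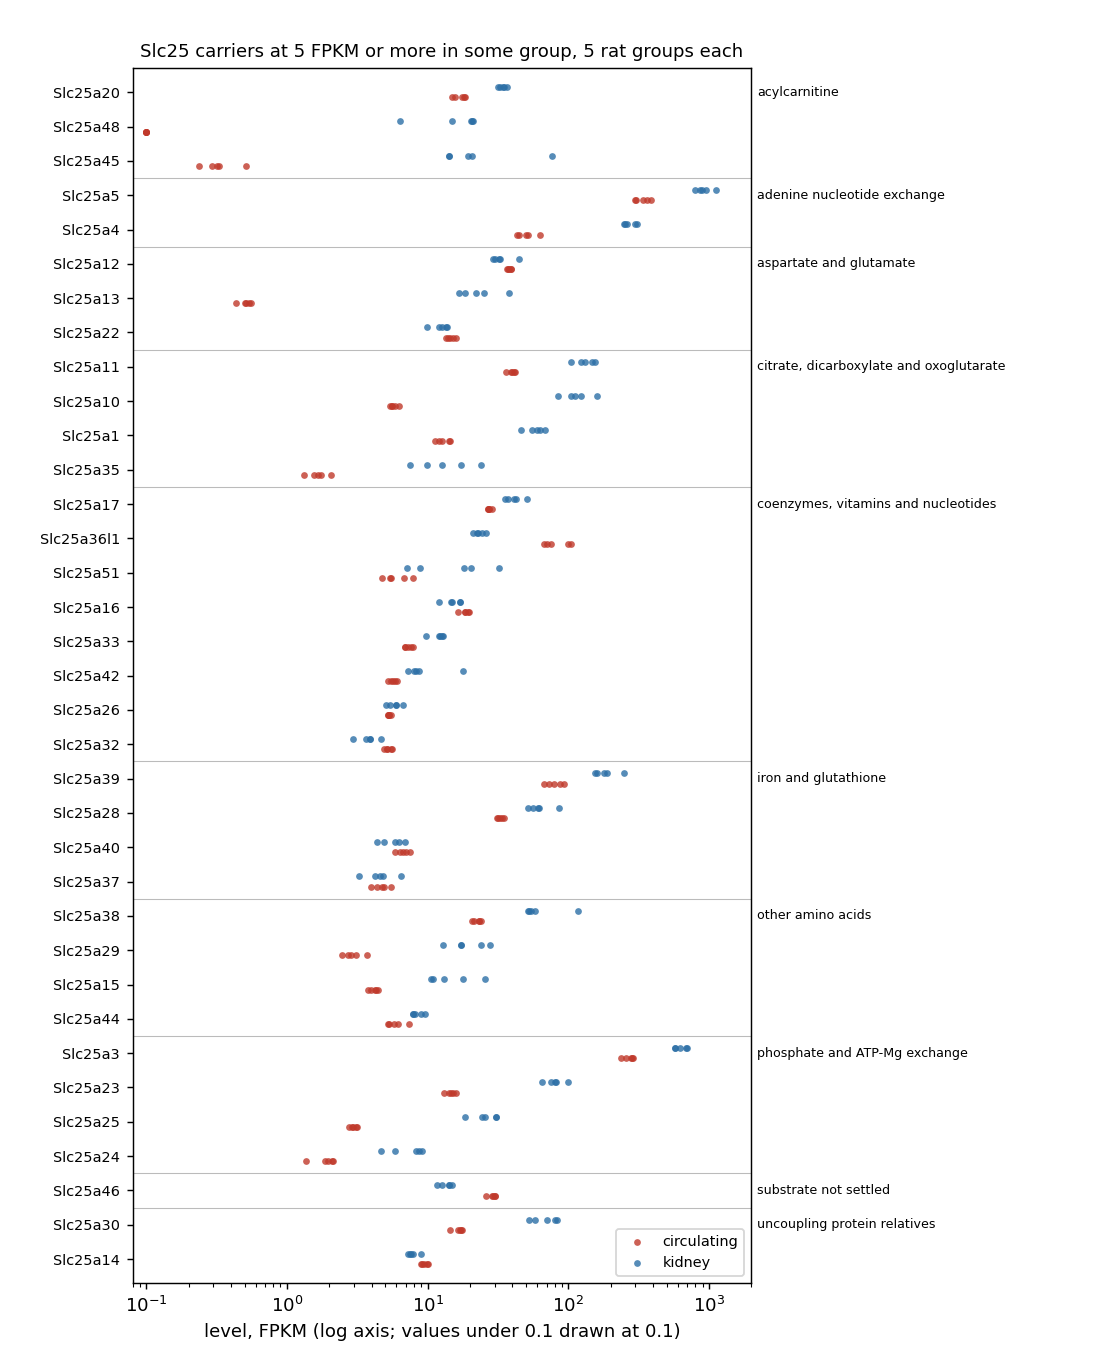
Levels in FPKM (log axis) of 35 of the 36 carriers that reached 5 FPKM in at least 1 group, ordered by transport role, with 1 carrier not shown. Each point is 1 group, with 5 circulating groups in red and 5 kidney groups in blue, and values under 0.1 FPKM are drawn at 0.1. For 24 carriers every kidney point lies above every circulating point, for 4 every kidney point lies below, and for 7 the tissues overlap. No share of all gene models with such a separation is given beside these counts.

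Kidney preparations were set against circulating T cells of the same group of rats to show how their carrier levels differ. Values given below for blood are those of the circulating T cells. Of 39 members tested in SS/MCW LS at 7 weeks, 25 were higher in kidney and 3 lower, against 32.9% and 23.9% of all gene models tested. In SS/MCW LS at 10 weeks 20 of 37 were higher and 2 lower, against 26.6% and 17.0% of all models. In SS/MCW HS 22 of 37 were higher and 2 lower, against 30.6% and 18.4%. In SS/CRL LS 25 of 39 were higher and 4 lower, against 31.5% and 22.0%, and in SS/CRL HS 22 of 39 were higher and 2 lower, against 30.6% and 20.3%. Among members that reached 1 FPKM in either tissue the median log2 ratio was 0.84, 1.09, 0.83, 1.48 and 1.22 in the 5 comparisons, and that of all gene models under the same rule was 0.20, 0.27, 0.20, 0.42 and 0.48. Gene models with at least 5 FPKM in both tissues had medians between -0.23 and -0.15, so relative to these the members' ratios are slightly larger than printed.

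Of the 37 members tested in all 5 comparisons, 19 were higher in kidney in each of them, which is 51.4% of the members against 18.4% of gene models. Slc25a36l1 and Slc25a46 were lower in kidney in each, 5.41% against 13.6% of gene models. Among the others, 7 were higher in 1 to 4 comparisons, 3 were lower in 1 to 4 and 6 were called in none. The remaining 7 of the 44 were tested in fewer than 5 comparisons, 5 of them in none. The deposited p does not follow from the deposited statistic, and a normal p of that statistic left 8 of the 19, namely Slc25a1, Slc25a4, Slc25a10, Slc25a11, Slc25a23, Slc25a24, Slc25a25 and Slc25a45, and neither of the 2 that were lower. No share of all gene models under this normal p is given beside these counts.

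**Figure D2:**
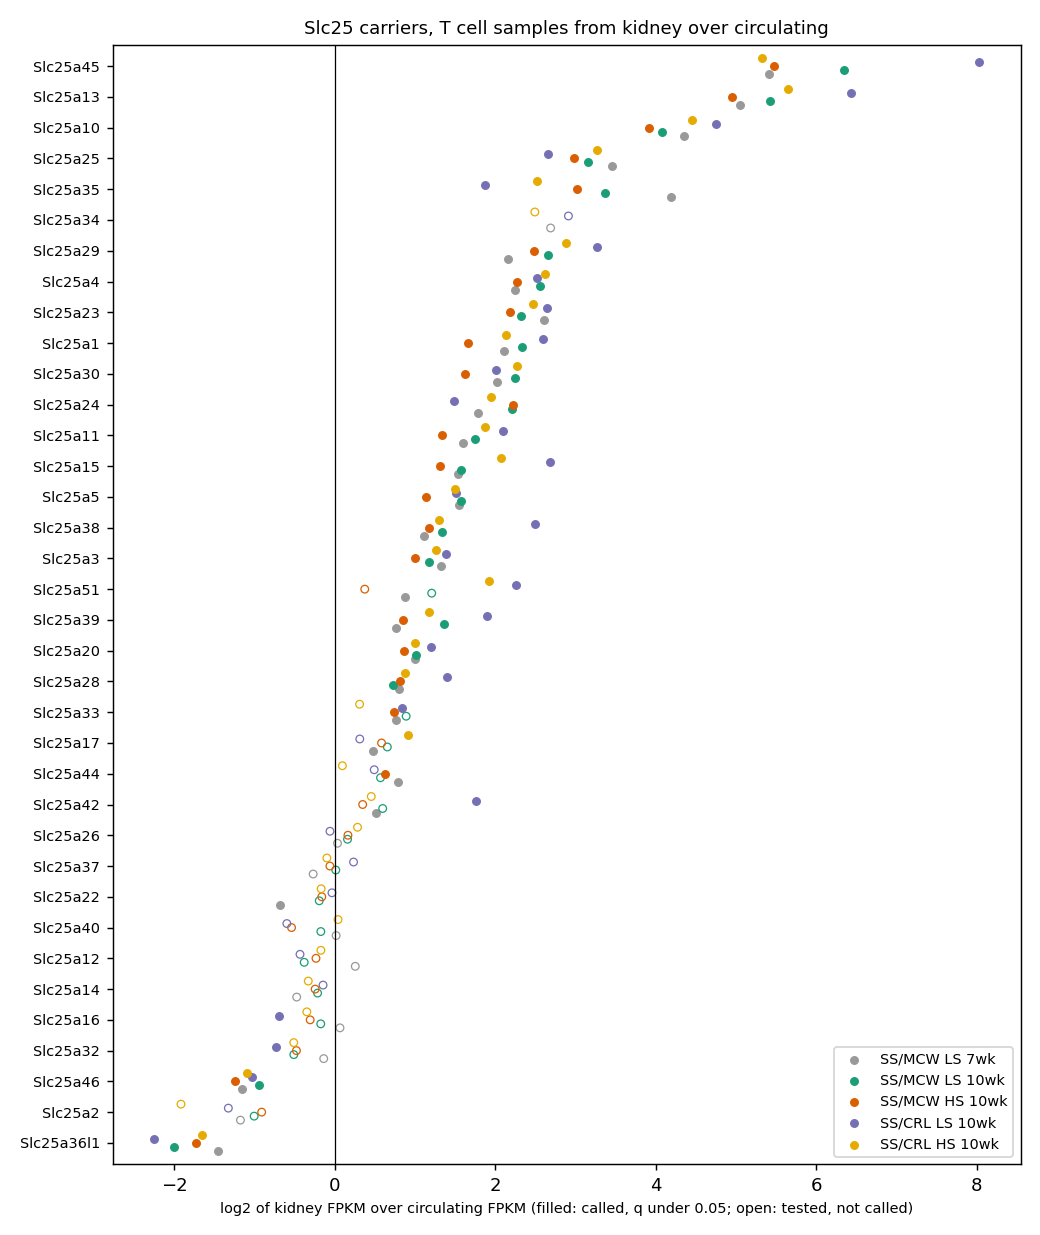
Log2 ratio of kidney over circulating FPKM for each carrier tested, 1 point for each of 5 groups of rats, filled where the deposited q is under 0.05 and open otherwise. Carriers are ordered by their median ratio, from Slc25a36l1 at -1.73 to Slc25a45 at 5.48. Slc25a48 is left out because it is listed at 0 in 4 circulating groups, Slc25a21 because it is listed at 0 in all 5, and 1 carrier that is not reported is left out too.

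The adenine nucleotide carriers and the phosphate carrier, which supply the ATP synthase with ADP and phosphate, were among the 5 most abundant members in every group and were higher in kidney in all 5 comparisons. Slc25a5 (chromosome X from 123549682 to 123552808), the adenine nucleotide translocase of dividing cells, stood at 384, 299, 363, 300.4 and 338 FPKM in the circulating groups and at 1125, 886, 795, 856 and 957 FPKM in the kidney groups. The lowest kidney value was above the highest circulating value, and the log2 ratios ran from 1.13 (SE 0.51) to 1.57 (SE 0.68). Slc25a4 (chromosome 16 from 48981574 to 48985393), the translocase typical of heart and muscle, stood at 63.1, 44.2, 52.0, 43.2 and 49.9 FPKM in blood and at 299, 261, 251, 248 and 308 FPKM in kidney, with log2 ratios from 2.25 (SE 0.36) to 2.62 (SE 0.34). The phosphate carrier Slc25a3 (chromosome 7 from 31904033 to 31911476) stood at 279, 256, 288, 238 and 285 FPKM in blood and at 701, 576, 575, 622 and 685 FPKM in kidney, with log2 ratios from 1.00 (SE 0.51) to 1.39 (SE 0.38). The tissues did not overlap for either of them. RefSeq lists several near-identical copies of Slc25a5, and the way shared reads were divided is not given in the sources used here, so the level of this gene is uncertain.

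The calcium-regulated ATP-Mg/phosphate carriers, which adjust the matrix pool of adenine nucleotides, were also higher in kidney in all 5 comparisons. Slc25a23 stood at 13.1, 15.1, 14.3, 15.8 and 14.6 FPKM in blood and at 80.2, 75.2, 64.9, 99.0 and 81.3 FPKM in kidney. Slc25a25 stood at 2.78, 2.90, 3.07, 2.93 and 3.17 FPKM in blood and at 30.6, 25.8, 24.3, 18.5 and 30.6 FPKM in kidney, the fourth largest median log2 ratio among the members with a ratio in every group of rats and over 5 FPKM in kidney, at 3.15. Slc25a24 was the least abundant of the set, with 1.36, 1.86, 1.97, 2.10 and 2.13 FPKM in blood and 4.69, 8.62, 9.15, 5.88 and 8.22 FPKM in kidney. No circulating group reached the lowest kidney value for any of them.

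Of the 5 members grouped here, carriers of citrate, dicarboxylates and oxoacids with 1 orphan relative, 4 were higher in kidney in every comparison. Slc25a10 (chromosome 10 from 109258931 to 109266447), which exchanges malate and succinate for phosphate, stood at 5.44, 6.22, 5.58, 5.89 and 5.57 FPKM in blood and at 112, 105, 83.9, 159 and 122 FPKM in kidney. Its log2 ratios ran from 3.91 (SE 0.56) to 4.76 (SE 0.47), so its lowest kidney value was more than 10 times its highest circulating value. Slc25a11, the oxoglutarate/malate carrier of the malate-aspartate shuttle, stood at 40.8, 39.0, 41.6, 36.3 and 39.9 FPKM in blood and at 124, 131, 105, 155 and 146 FPKM in kidney. The citrate carrier Slc25a1, which exports citrate for fatty acid synthesis, ranged from 11.3 to 14.5 FPKM in the circulating groups and from 45.7 to 68.6 FPKM in the kidney groups. Slc25a35, an orphan relative of this branch, stood at 1.32, 1.66, 1.56, 2.05 and 1.74 FPKM in blood and at 24.0, 17.1, 12.6, 7.50 and 9.95 FPKM in kidney. Its largest kidney value was in the 7-week group, whereas those of Slc25a1, Slc25a10 and Slc25a11 were in SS/CRL LS. The oxoadipate carrier Slc25a21 was listed at 0 in all circulating groups and lay between 0.555 and 1.05 FPKM in kidney, with 1 call among 3 tests.

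The aspartate and glutamate carriers differed among themselves. Slc25a13 (citrin, chromosome 4 from 31041069 to 31625011), the aspartate/glutamate carrier of liver and kidney, stood at 0.551, 0.511, 0.541, 0.435 and 0.504 FPKM in blood and at 18.3, 22.0, 16.7, 37.6 and 25.2 FPKM in kidney. It was higher in kidney in all 5 comparisons, with log2 ratios from 4.95 (SE 4.00) to 6.43 (SE 3.46). In the SS/MCW groups at 10 weeks the implied errors come close to the ratios, 4.95 (SE 4.00) on HS and 5.43 (SE 4.89) on LS, although q in the authors' deposited table did not exceed 0.00219 in any of the 5. Its circulating values lie under 1 FPKM, and with a pseudocount of 1 the log2 ratios ran from 3.52 to 4.75. Its paralog Slc25a12 (aralar), which carries the same substrates, stood at 37.3, 39.1, 37.8, 39.4 and 36.6 FPKM in blood and at 44.5, 30.0, 32.2, 29.2 and 32.5 FPKM in kidney and was called in none. The glutamate carrier Slc25a22 ranged from 13.6 to 15.9 FPKM in the circulating groups and from 9.88 to 13.7 FPKM in the kidney groups, and was lower in kidney in 1 comparison.

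Among carriers of other amino acids, 3 of 5 were higher in kidney in all 5 comparisons. The ornithine carrier Slc25a15, which serves the urea cycle, stood at 3.79, 4.43, 4.26, 3.96 and 4.20 FPKM in blood and at 11.0, 13.2, 10.6, 25.4 and 17.7 FPKM in kidney. The basic amino acid carrier Slc25a29 stood at 2.86, 2.72, 3.08, 2.47 and 3.72 FPKM in blood and at 12.8, 17.1, 17.3, 23.9 and 27.5 FPKM in kidney. Slc25a38, which takes up glycine for heme synthesis, ranged from 20.8 to 23.8 FPKM in the circulating groups and from 51.3 to 117 FPKM in the kidney groups. The tissues did not overlap for these 3 carriers. Slc25a44, which takes up branched-chain amino acids, ranged from 5.20 to 7.39 FPKM and from 7.89 to 9.56 FPKM and was higher in 2 comparisons. The second ornithine carrier Slc25a2 stood at 1.44, 2.39, 1.90, 2.12 and 1.66 FPKM in blood and at 0.639, 1.19, 1.01, 0.844 and 0.439 FPKM in kidney and was called in none.

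The branch of the carnitine/acylcarnitine carrier held the largest differences between the tissues. Slc25a20, which brings acylcarnitines to fatty acid oxidation, ranged from 15.0 to 18.4 FPKM in the circulating groups and from 31.6 to 36.9 FPKM in the kidney groups and was higher in all 5 comparisons. Slc25a45 (chromosome 1 from 228169816 to 228177541), a relative linked to the import of methylated lysine, stood at 0.329, 0.239, 0.319, 0.294 and 0.512 FPKM in blood and at 14.1, 19.5, 14.2, 77.0 and 20.6 FPKM in kidney. Its log2 ratios ran from 5.33 (SE 1.35) to 8.03 (SE 1.64), all 5 of them called. With a pseudocount of 1 FPKM they ran from 3.50 to 5.91, since the circulating values are under 1 FPKM. Slc25a48 (chromosome 17 from 10741531 to 10781987), linked to choline import, was listed at 0 in 4 circulating groups and at 0.00374 FPKM in SS/CRL HS. In kidney it stood at 6.39, 20.6, 14.8, 20.2 and 21.1 FPKM, and it was higher in the 4 comparisons in which the circulating value was 0. In SS/CRL HS, where it was not, q in the authors' deposited table was 0.304.

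Of the carriers of iron and glutathione, the more abundant member of each pair was higher in kidney and the other was not called. Mitoferrin 2, Slc25a28, which imports iron, stood at 35.0, 31.1, 31.7, 32.4 and 33.8 FPKM in blood and at 61.2, 51.3, 55.8, 85.3 and 61.9 FPKM in kidney. Mitoferrin 1, Slc25a37, the form of erythroid cells, stood at 3.93, 4.76, 4.38, 5.53 and 4.89 FPKM and at 3.26, 4.81, 4.20, 6.50 and 4.57 FPKM. The glutathione carrier Slc25a39 stood at 93.6, 73.1, 86.5, 66.7 and 79.4 FPKM in blood and at 159, 187, 156, 248 and 179 FPKM in kidney, and its paralog Slc25a40 at 5.83, 7.05, 6.35, 7.44 and 6.72 FPKM and 5.90, 6.25, 4.37, 4.92 and 6.91 FPKM. Slc25a28 and Slc25a39 were higher in all 5 comparisons without overlap between tissues, and Slc25a37 and Slc25a40 were called in none.

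None of the 9 carriers of coenzymes, vitamins and nucleotides was higher in kidney in all 5 comparisons. Slc25a36l1 (chromosome 8 from 104408748 to 104442162), a pyrimidine nucleotide carrier, was the member with the largest deficit in kidney. It stood at 67.2, 104, 75.5, 100.2 and 70.4 FPKM in blood and at 24.5, 26.0, 22.7, 21.0 and 22.4 FPKM in kidney, with log2 ratios from -2.25 (SE 0.68) to -1.45 (SE 0.57). In blood its low values were those of SS/MCW LS at 7 weeks and of both HS groups, and in kidney its 5 values were close together. The current RefSeq list places Slc25a36 on chromosome 8 and Slc25a36l1 elsewhere, so this gene model may hold reads of either. Its paralog Slc25a33 stood at 7.63, 6.86, 7.20, 6.88 and 7.85 FPKM in blood and at 12.9, 12.7, 12.0, 12.3 and 9.73 FPKM in kidney and was higher in 3 comparisons. The NAD carrier Slc25a51 stood at 4.77, 7.85, 5.47, 6.76 and 5.38 FPKM in blood and at 8.77, 18.1, 7.09, 32.4 and 20.4 FPKM in kidney and was higher in 3 comparisons, both SS/CRL ones and that at 7 weeks.

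The peroxisomal carrier Slc25a17 ranged from 26.7 to 28.7 FPKM in the circulating groups and from 35.7 to 51.1 FPKM in the kidney groups and was higher in 2 comparisons, as was the coenzyme A carrier Slc25a42, described further below. The folate and FAD carrier Slc25a32 (4.88 to 5.57 FPKM in blood, 2.94 to 4.70 FPKM in kidney) was lower in 1 comparison. Slc25a16, related to coenzyme A transport, stood at 16.3, 19.2, 18.3, 19.6 and 18.6 FPKM in blood and at 17.1, 17.0, 14.8, 12.1 and 14.6 FPKM in kidney and was lower in 1, SS/CRL LS. The S-adenosylmethionine carrier Slc25a26 ranged from 5.23 to 5.49 FPKM and from 5.02 to 6.68 FPKM and was called in none. The model of Slc25a16 also carries the symbol Dna2, so reads of the 2 genes cannot be told apart.

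Among relatives of the uncoupling proteins, Slc25a30, first described as a kidney carrier, ranged from 14.3 to 17.6 FPKM in the circulating groups and from 52.1 to 82.5 FPKM in the kidney groups and was higher in all 5 comparisons. Slc25a14 stood at 10.1, 9.06, 9.02, 9.95 and 9.36 FPKM in blood and at 7.24, 7.81, 7.62, 8.99 and 7.44 FPKM in kidney, without overlap and without a call. Slc25a46 (chromosome 18 from 24086614 to 24218037), an outer membrane member that acts in mitochondrial shape rather than transport, was the other carrier lower in kidney in all 5. It stood at 25.9, 28.4, 29.9, 29.0 and 30.3 FPKM in blood and at 11.6, 14.8, 12.7, 14.1 and 14.2 FPKM in kidney, with log2 ratios from -1.24 (SE 0.61) to -0.94 (SE 0.74). The orphan carrier Slc25a34 did not exceed 0.219 FPKM in blood or 1.24 FPKM in kidney and was called in none of 3 tests.

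Paralogs with the same substrate were mixed in different shares in the 2 tissues. Slc25a4 held 12.5% to 14.1% of the summed FPKM of Slc25a4 and Slc25a5 in blood and 21.0% to 24.3% in kidney. Slc25a13 held 1.09% to 1.46% of the sum with Slc25a12 in blood and 29.1% to 56.3% in kidney, highest in SS/CRL LS. Slc25a33 held 6.18% to 10.2% of the sum with Slc25a36l1 in blood and 30.3% to 37.0% in kidney. For the mitoferrins the tissues were closer, with Slc25a28 at 85.4% to 89.9% in blood and 91.4% to 94.9% in kidney. Slc25a23 led the ATP-Mg carriers in both tissues, with 73.3% to 75.9% in blood and 66.0% to 80.3% in kidney. Of the ornithine and basic amino acid carriers, Slc25a15 held 43.8% to 46.8% in blood and 36.7% to 50.6% in kidney. For the last 2 shares the tissues overlapped. The deposited values give no test of a share.

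**Figure D3:**
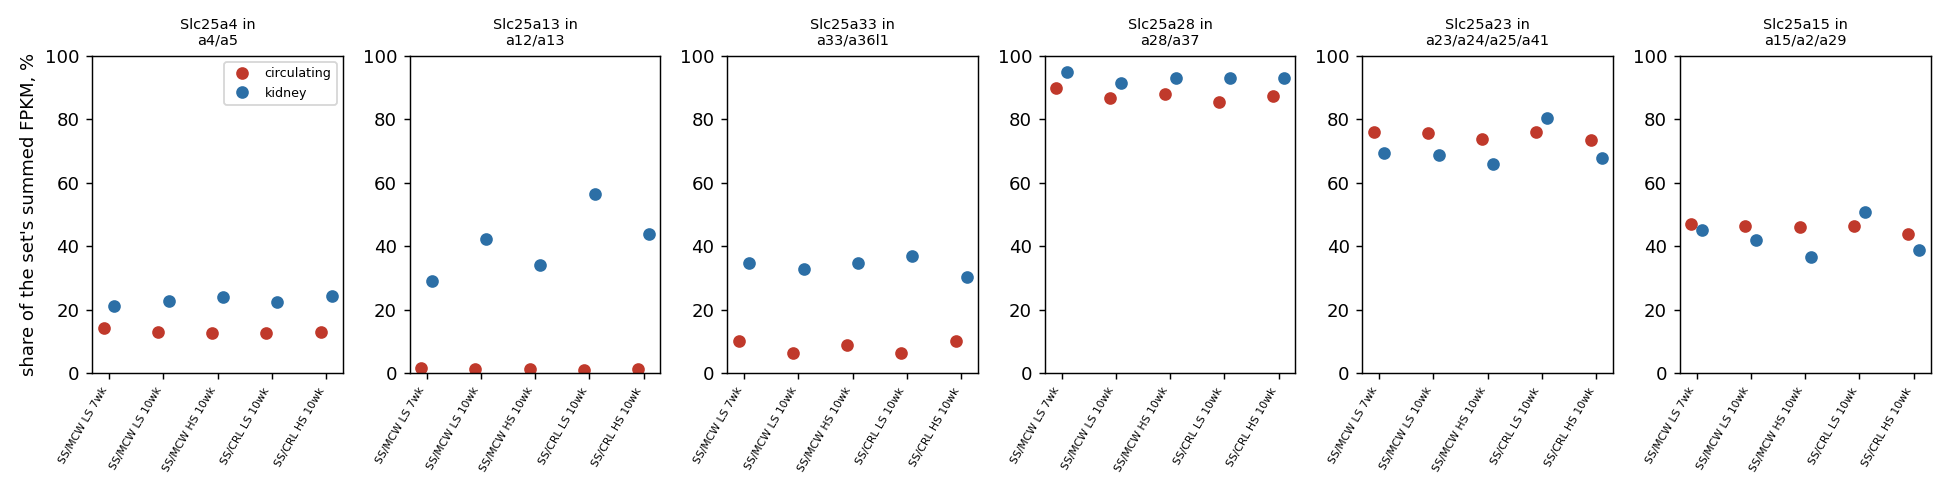
Share in percent of 1 carrier in the summed FPKM of its paralog set, by group of rats, with circulating groups in red and kidney groups in blue. The Slc25a13 share lies at 1.09% to 1.46% in all circulating groups and at 29.1% to 56.3% in the kidney groups. For Slc25a23 and Slc25a15, the carriers drawn in the last 2 sets, the tissues overlap. Slc25a29 and Slc25a2, whose shares do not overlap, are not drawn.

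Genes of related lists were counted in the same way, beside 18.4% of gene models higher and 13.6% lower in all 5. Of 18 citric acid cycle enzymes 17 were higher in kidney in all 5 comparisons. Of 16 genes of the carrier import machinery, which guides carriers through the outer membrane and into the inner one, 4 were higher in all 5 (Timm10, Timm10b, Timm13 and Timm22) and none was lower in all 5, so the share that was higher lay near that of all gene models. Of 24 other mitochondrial transporter genes tested in all 5, 11 were higher, among them the pyruvate carrier subunits Mpc1 and Mpc2, and 2 were lower. Mpc1 stood at 45.8 to 56.3 FPKM in blood and at 539 to 711 FPKM in kidney. The 2 that were lower were Ucp2, an uncoupling protein of immune cells at 571 to 636 FPKM in the circulating groups and 57.1 to 142 FPKM in the kidney groups, and Mcart1l at 37.7 to 45.5 FPKM in the circulating groups and 0.229 to 1.35 FPKM in the kidney groups. RefSeq gives Mcart1l as a synonym of Slc25a53, a carrier that the symbol rule does not take in. The rule also leaves out the uncoupling protein genes and Mtch1 and Mtch2, which belong to the family under other names. Mtch1 and Mtch2 were among the 11 that were higher. The calls of these genes are not in the counts of members.

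Salt, rat type and age were compared within each tissue, and few carriers were called. In kidney of SS/CRL rats, HS against LS, 3 of 36 members tested were lower and none higher, 8.33% against 5.51% of gene models tested, a share close to that background. With an unadjusted p under 0.05 there were 10 members in this comparison. Slc25a45 fell from 87.3 to 22.7 FPKM, a log2 fold change of -1.94 (SE 0.50). Slc25a38 fell from 132 to 64.1 FPKM (-1.05, SE 0.44), and Slc25a42, which takes coenzyme A into the matrix, from 20.1 to 8.84 FPKM (-1.18, SE 0.53). In the authors' deposited table q was 0.00171 for each of the 3, the smallest in that comparison, and a normal p of the deposited statistic called none of them. The median log2 fold change of the members was 0.03, beside 0.05 for all gene models, and 20 of 38 members had a value above 0.

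In the plot by group the SS/CRL LS kidney group stood alone for these 3 carriers. The levels of Slc25a38 in kidney were 51.3, 54.0, 52.5, 117 and 57.7 FPKM, and those of Slc25a42 were 8.64, 8.33, 7.25, 17.7 and 7.99 FPKM, as set across separately normalized tables. In blood Slc25a38 stood at 23.8, 21.4, 23.3, 20.8 and 23.3 FPKM and Slc25a42 at 6.07, 5.51, 5.70, 5.22 and 5.83 FPKM, with no group apart. Of the 36 members that reached 5 FPKM, 15 had their highest kidney level in SS/CRL LS and 9 their lowest. No share of all gene models is given beside these counts, so they are not read as a trait of the family. In the same comparison of HS with LS, 6 of 10 proximal tubule markers were lower and 1 higher, with a median log2 fold change of -1.51 and a sum that went from 11408 to 6677 FPKM. Of 5 erythroid markers 3 were lower, with a median of -2.17, and of 11 T cell markers tested 1 was lower, with a median of -0.29. Of 6 endothelial markers 4 were higher, with a median of 0.83, and of 8 markers of the thick limb and distal nephron 2 were higher, with a median of 0.53. The part of these cells in the 3 calls was not tested.

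**Figure D4:**
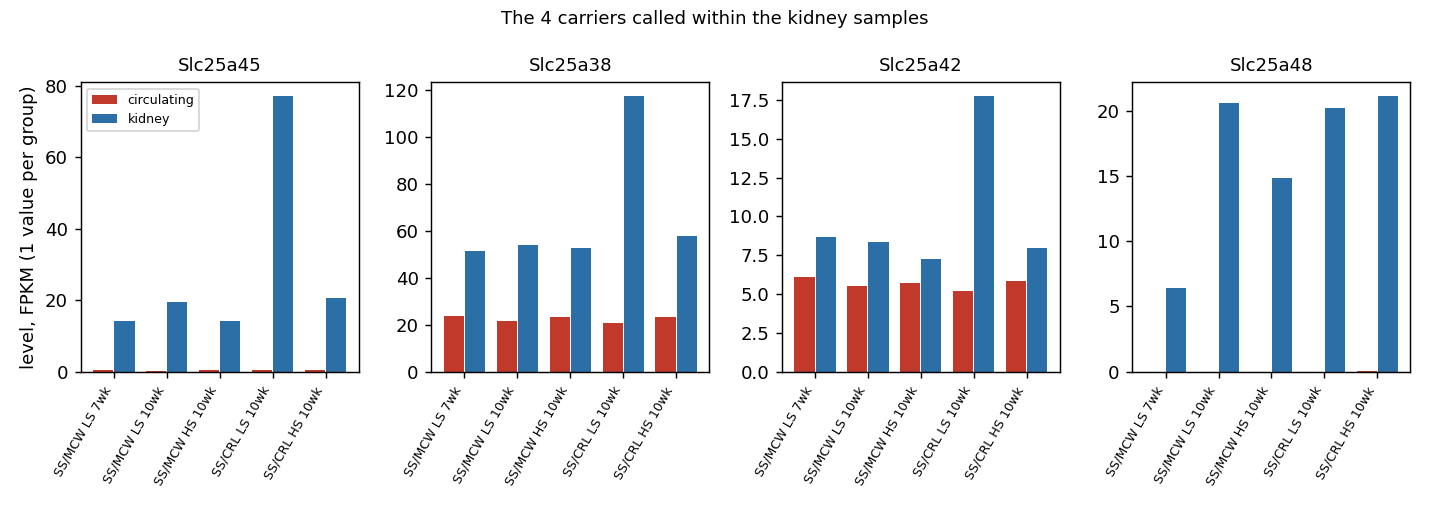
Levels in FPKM, 1 value per group, of the 4 carriers called in a comparison within kidney, with circulating groups in red and kidney groups in blue. The SS/CRL LS kidney bar is the highest for Slc25a45 (77.0 FPKM), Slc25a38 (117 FPKM) and Slc25a42 (17.7 FPKM), and Slc25a48 is lowest in kidney at 7 weeks (6.39 FPKM).

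The sequences upstream of these 3 genes are shown because the genes were called together. RefSeq promoter windows on build GRCr8 were matched by symbol for 37 of the 44 members, and the 250 bases before the annotated start were searched on both strands. The motifs were chosen with the results known and were TCAAGGTCA (bound by estrogen-related receptors), CAAAGTCCA (HNF4), GTTAAT (HNF1), CACGTG (E-box), CCAAT and GGGCGG (GC box), none of which contains another. Capitals mark matches. The window of Slc25a38 lies at chr8:128712930-128713179 on the plus strand, that of Slc25a42 at chr16:19247724-19247973 on the plus strand and that of Slc25a45 at chr1:212596601-212596850 on the plus strand. The windows of Slc25a42 and Slc25a45 do not start at the outermost start that RefSeq lists for the gene.
Slc25a38: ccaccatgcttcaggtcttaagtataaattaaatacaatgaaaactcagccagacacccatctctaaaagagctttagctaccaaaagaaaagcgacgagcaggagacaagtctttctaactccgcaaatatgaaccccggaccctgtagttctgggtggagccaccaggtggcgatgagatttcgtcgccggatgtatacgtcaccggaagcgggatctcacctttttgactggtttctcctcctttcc
Slc25a42: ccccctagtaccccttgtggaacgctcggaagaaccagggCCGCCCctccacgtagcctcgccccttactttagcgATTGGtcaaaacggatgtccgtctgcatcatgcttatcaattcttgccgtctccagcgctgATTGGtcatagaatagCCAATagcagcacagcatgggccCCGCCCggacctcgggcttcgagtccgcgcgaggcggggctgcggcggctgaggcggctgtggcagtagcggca
Slc25a45: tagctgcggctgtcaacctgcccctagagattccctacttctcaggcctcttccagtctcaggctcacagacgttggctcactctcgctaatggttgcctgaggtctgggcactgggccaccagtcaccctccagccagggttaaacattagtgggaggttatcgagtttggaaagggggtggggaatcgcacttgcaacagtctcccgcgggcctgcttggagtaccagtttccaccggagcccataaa
Slc25a42 held 3 CCAAT and 2 GC box matches, and the other two held no match to any of the 6 motifs. CCAAT was found in 34.0% of all 33469 windows and in 21 of the 37 members' windows, and the GC box in 30.5% of all windows and also in 21. The E-box was found in 5.59% of all windows and in 3 members' windows. The letters of the estrogen-related receptor, HNF4 and HNF1 elements, found in 0.388%, 0.338% and 6.45% of all windows, were in no member's window. A match is a string of letters and not a measured binding site.

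Between rat types on LS, Slc25a45 alone was called in kidney, 1 of 36 members, 2.78% against 1.81% of gene models. It was higher in SS/CRL than in SS/MCW rats, with 22.0 FPKM in SS/MCW and 85.5 FPKM in SS/CRL, a log2 fold change of 1.96 (SE 0.70) and q = 0.00524 in the authors' deposited table. Slc25a38 stood at 60.9 and 129.8 FPKM with a q of 0.0995, and Slc25a42 at 9.29 and 19.7 FPKM with q = 0.144 in the authors' deposited table, neither of them called. This comparison shares its SS/CRL LS group with the salt comparison above. Proximal tubule markers had a median log2 fold change of 1.84 with 4 of 10 higher, and T cell markers one of -0.56 with 1 of 11 tested lower. Macrophage markers had a median of -1.29 with 2 of 8 lower, endothelial markers one of -0.98 with 1 of 6 lower and fibroblast markers one of -2.21 with 1 of 5 tested lower. With none called, the medians were -0.63 for thick limb and distal nephron and -0.46 for erythroid markers. The part of all these cells in the call was not tested. On HS no member of 39 was called between the rat types, against 5.72% of gene models, with 6 members at an unadjusted p under 0.05. The smallest of their q in the authors' deposited table was that of Slc25a15, at 12.1 FPKM in SS/MCW and 20.1 FPKM in SS/CRL, with q = 0.0614. The median of the members was 0.25, and 30 of 39 had a value above 0, beside a median of 0.12 for all gene models. On HS T cell markers had a median of -2.07 with 11 of 12 lower and macrophage markers one of -2.20 with 7 of 8 lower. Proximal tubule markers had one of 0.86 with 3 of 10 higher and endothelial markers one of 0.74 with 2 of 6 higher. Of 8 thick limb and distal nephron markers 2 were higher and 1 lower, with a median of -0.10. The part of these cells in the members' median was not tested.

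Between 7 and 10 weeks, Slc25a48 rose in kidney of SS/MCW rats on LS from 7.14 to 23.2 FPKM, a log2 fold change of 1.70 (SE 0.75) and q = 0.00983 in the authors' deposited table. It was the single call among 36 members, 2.78% against 1.07% of gene models. In the older kidney groups it stood at 14.8 to 21.1 FPKM on the level scale, so the 7-week group was the low one. Over the same comparison erythroid markers had a median log2 fold change of 2.74 with 2 of 5 higher and macrophage markers one of 1.09 with 2 of 8 higher. Fibroblast markers had a median of 1.84 with 2 of 6 higher, and T cell markers one of 0.62 with 1 of 11 tested higher. Proximal tubule markers had a median of 0.48 with none of 10 called, and their sum went from 2926 to 5256 FPKM. Thick limb and distal nephron markers had one of -0.80 with none of 8 called, and their sum went from 16195 to 4936 FPKM. Endothelial markers had one of -0.06 with none of 6 called. The part of these cells in the call was not tested.

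In kidney of SS/MCW rats none of 37 members was called on HS against LS, beside 0.433% of gene models, and Cuffdiff gave no member an unadjusted p under 0.05. The median log2 fold change of the members was -0.21, with 7 of 37 above 0, beside -0.06 for all gene models. T cell markers had a median of 1.09 with 2 of 11 tested higher and macrophage markers one of 0.94 with 1 of 8 higher. Erythroid markers had a median of -3.28 with 2 of 5 lower. With none called, the medians were -0.51 for proximal tubule, 0.30 for thick limb and distal nephron, -0.90 for endothelial and -2.10 for fibroblast markers. The part of these cells in the members' median was not tested. Slc25a45 had 22.4 FPKM on LS and 15.9 FPKM on HS in this comparison, and Slc25a38 at 62.2 and 58.2 FPKM. Whether salt acted differently in the kidney of the 2 rat types was tested with the difference between both log2 fold changes, using SE from the deposited statistics and a Benjamini-Hochberg adjusted normal p. For Slc25a45 the effect in SS/MCW minus that in SS/CRL was 1.44 (SE 0.93), for Slc25a38 it was 0.95 (SE 0.82) and for Slc25a42 0.94 (SE 0.97), and the adjusted p was 1.00 for each by this normal test on Cuffdiff statistics. None of 36 members passed, none had an unadjusted p under 0.05, and 0% of 16430 gene models passed. Over all gene models the difference divided by its SE had an SD of 0.61, narrower than the normal curve it was read against. Only 109 of the 16430 had an unadjusted p under 0.05 by this normal test, so it could call little. With SE from the deposited p, 60 gene models passed and no member did, and the unadjusted p was 0.0200 for Slc25a45 and 0.0339 for Slc25a38. The test thus does not show that salt acted alike or differently on these carriers.

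In circulating T cells no member was called in any of the 5 comparisons. For salt in SS/MCW rats this was 0 of 35 members against 0.107% of gene models, and for salt in SS/CRL rats 0 of 36 against 0.670%. For rat type it was 0 of 35 on LS against 0.541% and 0 of 36 on HS against 0.241%, and for age 0 of 35 against 1.94%. By Cuffdiff's unadjusted p under 0.05 there were 0, 4, 0, 0 and 6 members in this order, and a normal p of the statistic also called none. The 6 in the comparison of age included both adenine nucleotide carriers. Slc25a4 stood at 56.9 FPKM at 7 weeks and 39.6 FPKM at 10 weeks (q = 0.0771 in the authors' deposited table), and Slc25a5 at 346 and 268 FPKM (q = 0.271). In the test of the difference between the salt effects of the rat types in circulating cells 0 of 35 members passed, against 0.0367% of gene models, and none had an unadjusted p under 0.05. Of 16360 gene models 27 had an unadjusted p under 0.05 by this normal test, so here too it could call little. The difference divided by its SE had an SD of 1.32. With SE from the deposited p that SD was 0.68, 1 gene model passed and no member did. The test thus does not show that salt acted alike or differently on the carriers in circulating cells of the rat types.

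**Figure D5:**
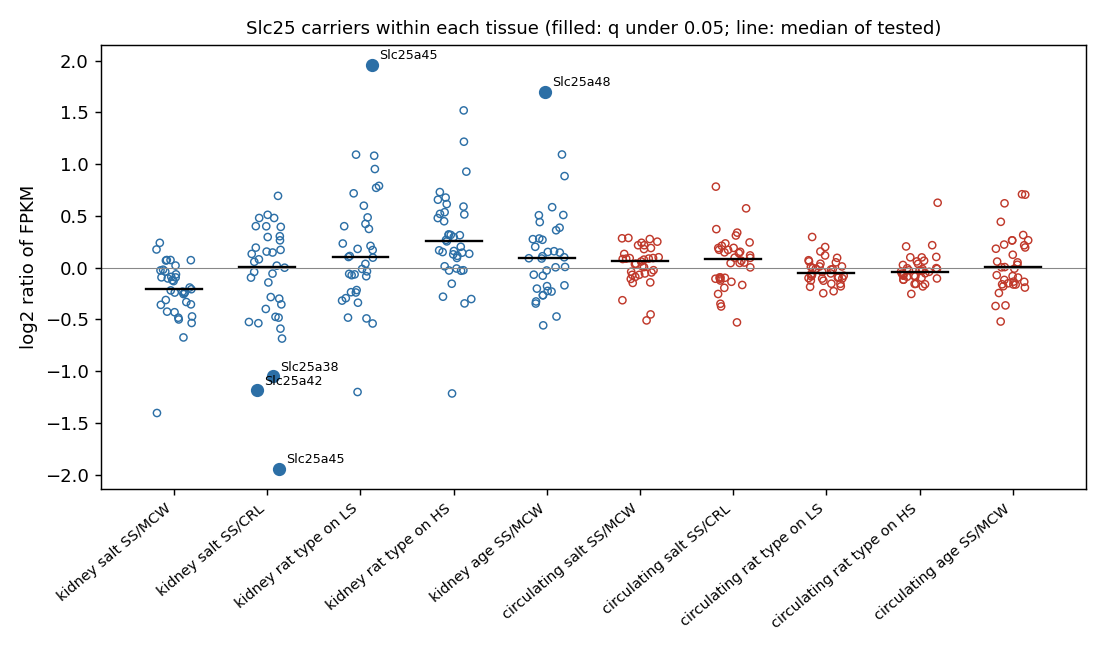
Log2 ratio of FPKM of each carrier tested in 10 comparisons within a tissue, HS over LS for salt, SS/CRL over SS/MCW for rat type and 10 over 7 weeks for age. Filled points are called at q under 0.05 and the line is the median of the members tested. The 5 calls are all in kidney, 3 of them lower on HS in SS/CRL rats.

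Of the related lists, few members were called within a tissue. In kidney of SS/CRL rats on HS the mitochondrial outer membrane protein gene Tspo was higher and Sfxn2, a sideroflexin, was lower among 23 other mitochondrial transporter genes tested. Of all gene models tested there, 5.51% were called. On HS Ucp2 was lower in kidney of SS/CRL than of SS/MCW rats, 1 of 24, in a comparison in which 11 of 12 T cell markers and 7 of 8 macrophage markers were also lower. In that comparison 5.72% of gene models were called. Sfxn1, which imports serine, was higher at 10 than at 7 weeks in kidney, 1 of 23 against 1.07% of gene models. Of the import machinery Timm13 was lower at 10 than at 7 weeks in circulating cells, 1 of 16 against 1.94% of gene models. Of the citric acid cycle enzymes Sdhc was higher in SS/CRL rats on HS in kidney, 1 of 18 against 5.72% of gene models. No other member of the 3 lists was called in these 10 comparisons.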

How the data were processed

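RNA was extracted from isolated circulating and kidney T cells with TRIzol and made into TruSeq libraries, per the labels' protocols, which do not state how the cells were isolated. Per the submitters' processing notes, cutadapt, Trim Galore 0.2.5, TopHat, TopHat2 2.1.1, Cufflinks 2.2.1 and Cuffdiff were used with build rn5. The submitters deposited 15 tables of Cuffdiff output, with 31677 gene models in each. Per the file headers, these hold the authors' FPKM, 1 value per group, with a test statistic (a score), a p-value and a q-value for each comparison. No value per library was used here, so the depth and the precision it gives are unknown. The smallest deposited p is 5e-05.

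Tissues are compared in 5 of them, and the other 10 compare salt, rat type or age within 1 tissue, each oriented as kidney over circulating, SS/CRL over SS/MCW, HS over LS or 10 over 7 weeks, which reversed 1 table. Log2 ratios were computed from FPKM, because a spreadsheet had altered part of the deposited fold change column, and none is given where a group is listed at 0. A member was called where q was under 0.05 and the status OK, with q taken over all gene models tested. Medians use members that reach 1 FPKM in either group. The SE is the log2 ratio divided by the deposited statistic. The difference of 2 salt effects was tested with a normal z and Benjamini-Hochberg adjustment over all gene models. This step was tested on data simulated with the same SE, which cannot show whether those SE are too large.

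Members, lists and motifs were chosen with earlier results of these data known. Values in all 10 groups are given for the 5 most abundant members of each tissue, the 5 largest and 5 smallest median ratios among members over 5 FPKM, members of paralog sets in which 2 or more reach 5 FPKM and members called within a tissue, and ranges for the others, while members under 1 FPKM in all groups are only named. The settings tried besides were a minimum of 1 or 5 FPKM, a q under 0.01, a normal p of the statistic with and without recentring, a pseudocount of 1, gene models with a single symbol, SE from the deposited p and each tissue comparison left out. Some listed genes, among them Mcart6, Lrp2 and Cd79a, matched no gene model. Of the members counted, 1 is not reported here. The software was scipy 1.17.1, numpy 2.4.6, pandas 2.3.3 and matplotlib 3.10.9 under Python 3.11.15.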

Additional observations from a re-analysis of the deposited data

How the results depend on the processing

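No paired analysis was possible because the tables hold 1 value per group and no value per pool, and for the same reason leaving out each pool in turn could not be run. A normal p of the deposited statistic called 0 members for salt in kidney of SS/CRL rats (3 as deposited), 0 between rat types on LS (1) and 0 for age (1), and so did the same p after recentring. For kidney over circulating the 2 settings called 17 and 18 members in SS/MCW LS at 7 weeks (28 as deposited), 9 and 11 in SS/MCW LS at 10 weeks (22) and 9 and 13 in SS/MCW HS (24). Higher in kidney in all 5 comparisons were 8 and 10 members (19), and lower in all 5 were 0 and 0 (2), with 1 at a q under 0.01. The cause was not tested, and no share of all gene models is given for these settings. A pseudocount of 1 FPKM moved 5 of 121 called log2 ratios by more than their implied SE, all of Slc25a45. The log2 ratios of Slc25a13 moved by less than their larger SE, to between 3.52 and 4.75. Recentring with a normal p left 44 of the 121 no longer called without changing their direction. Other counts of members stayed within 1.5 times under the alternatives run, and the 15 medians kept their direction under each filter and the pseudocount. The pseudocount and recentring turned the direction of none of these called ratios, whereas recentring changed the sign of some ratios that were not called. With no value per pool, outlying libraries could not be looked for.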
